A study of Rattus norvegicus with 13 samples.

Results

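Hearts of rats that carried the bacterial channel MscL-G22S, labelled 8 months, were compared gene by gene with wild-type hearts labelled 6 months. The comparison rests on 6 libraries, 3 in each group, of 13 in the series, chosen by their labels: every library of either group was used. All were made from bulk RNA of heart tissue. The sonogenetic group (ST) has the genotype MscL-G22S and was transduced with the virus AAV2/9-cTnT-MscL-G22S-mCherry. The control group (WT) has the genotype WT and the treatment none, so it received no empty or mCherry-only virus. No WT library of 8 months was analysed here. Group, labelled month and deposited table therefore differ together, and what each of them adds to a difference cannot be told apart. The labels do not say whether a month is an age or a time since the virus, and do not say whether ultrasound was applied before collection. They call the libraries of a group biological replicates, and the p-values below measure the spread between those libraries. ST hearts labelled 6 months (n = 3), which share a table with the WT hearts, are given beside these values for orientation, with no test.

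MscL opens when the membrane that holds it is stretched, and the G22S form opens at a lower tension. The cTnT promoter limits its expression largely to heart muscle cells, where ultrasound is meant to open it. Heart muscle cells under load are known to make more natriuretic peptides and fetal contractile isoforms, and stretched or stimulated cells transiently make immediate early transcription factors and heat shock proteins.

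The transgene matched every label. MSCL_G22S had 0 counts in each WT library. It had 752, 610 and 1003 counts in ST replicates 1, 2 and 3 of 8 months. Scaled by library total, the ST level was 152 ± 32.9 CPM (SD, n = 3; counts per 1e6 counts of the library), at least 1100-fold above the 3 counts that a count of 0 allows over all 3 WT libraries summed. ST hearts of 6 months had 165 ± 65.3 CPM (SD, n = 3), so the channel was still listed at a similar level 2 labelled months later, with no test of that difference.

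Much of the transcriptome stood apart, mostly by little. Of 13095 genes tested with edgeR's quasi-likelihood test, 4441 (33.9%) passed an adjusted p of 0.05, 2329 (17.8%) higher in ST and 2112 (16.1%) lower. The calls were 52.4% higher with this scaling (TMM) and 39.7% higher when libraries were scaled by their totals alone. Only 554 (4.23%) passed when the test asked for a change beyond 1.5-fold, 330 higher (2.52%) and 224 lower (1.71%). A gene was taken as near the WT level when the 95% interval of its fold change lay wholly within 1.5-fold in either direction (0.585 on the log2 scale). By that rule 7196 genes (55%) were near the WT level, among them 1405 (10.7%) that also passed the test. A further 3036 (23.2%) were called without lying inside the band. The remaining 2863 (21.9%) were neither called nor near, so these libraries do not place them on either side. Genes with few counts have wide intervals and seldom qualify as near, so a list of abundant genes holds more near genes than a list of rare ones. The median log2 fold change over all genes tested was -0.0081, with quartiles at -0.24 and 0.23. For 6132 genes (46.8%) all ST libraries lay above, or all below, every WT library, so such a separation is common here. Counts of the gene lists below are to be read beside the shares of all genes given here. The lists were chosen with earlier results of these data known. A list share that differs from that of all genes is therefore a description and not a test.

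**Figure D1:**
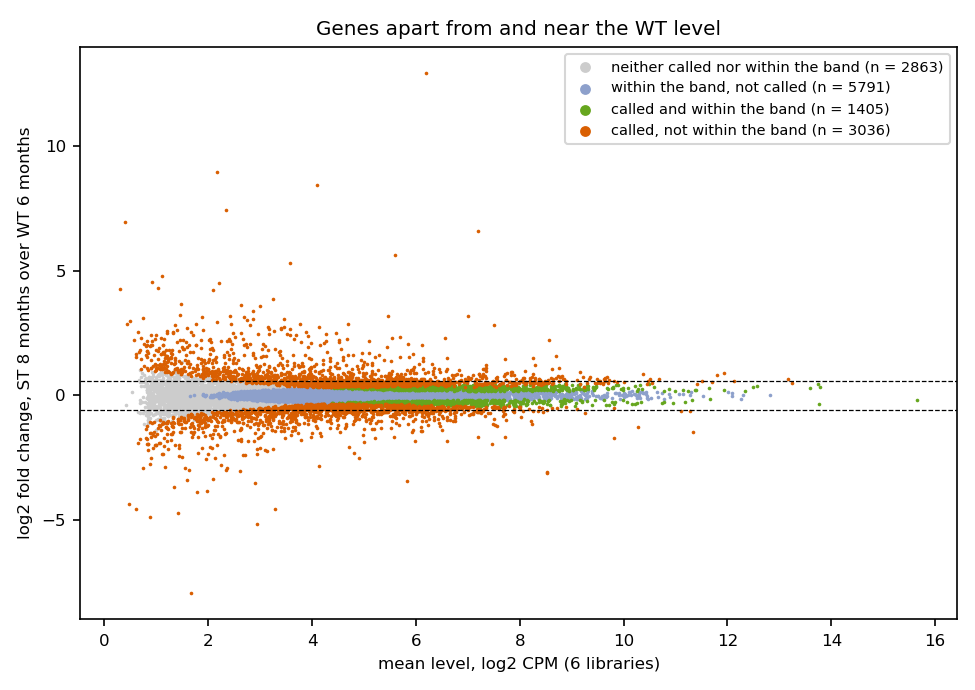
Each point is 1 of 13095 genes, with the mean level of the 6 libraries on the x axis (log2 CPM) and the log2 fold change of ST 8 months over WT 6 months on the y axis. Dashed lines mark 1.5-fold, and most genes lie between them: 7196 have their whole interval inside.

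Several features of the libraries moved with the groups, and their part in the results below was not tested. Totals ran from 7020157 to 7478500 counts in WT and from 4696160 to 5573022 in ST of 8 months. Correlations of log2 CPM were 0.987 to 0.99 within WT, 0.983 to 0.987 within ST and 0.956 to 0.964 between them. WT replicate 1 stood apart from its group, with 1300 CPM of the ribosomal RNA gene Rn18s against 269 and 362, while the ST libraries of 8 months had 50.1, 74.3 and 103. Of 60 cytosolic ribosomal protein genes 44 were higher in ST and 0 lower, at a median log2 fold change of 0.34 (0.23, with 1 lower, without WT replicate 1). Of 46 genes with very long mRNAs 29 were lower and 2 higher (1 higher on leaving out any single library), at a median of -0.28, and 42 of the 46 lay below 0. Names that look like copies of ribosomal protein, respiratory chain or proteasome genes also had higher levels in ST of 8 months. Of 45 such names tested 39 were higher and 0 lower. The summed level of all 196 listed was 222 to 271 CPM in WT, 274 to 327 in ST of 6 months and 670 to 728 in ST of 8 months. Rpl19l1, 1 of these names, was above WT in ST of 6 months too, at 4.32 to 4.79 against 0.267 to 0.515 CPM. Of the 12 largest increases that the naming rule took, 5 were among these 45 names, and 2 more (Chchd2l3 and Rps10l6) end in the same way but were not counted with them. All 7 are treated here as uncertain, because counts can be split between near-identical sequences.

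Most tested genes of the stress programme, the fetal and load-induced genes of heart muscle, lay above WT. Of 16 such genes tested 10 (62.5%, against 17.8% of all genes) were higher in ST of 8 months. Lower were 2 (12.5%, against 16.1%), and 4 (25%, against 55%) were near the WT level. Their median log2 fold change was 0.68. Nppb, which encodes the hormone BNP released by loaded ventricles, had 18.4, 27.0 and 32.3 CPM in the WT libraries and 290, 162 and 244 CPM in the ST libraries. The groups did not overlap, which held for 46.8% of all genes tested. The log2 fold change of Nppb was 3.17 ± 0.19 (SE, n = 3 per group; edgeR adjusted p = 4.34e-09). Nppa, the related hormone ANP, had 13.5, 40.4 and 82.6 CPM in WT against 488, 104 and 360 CPM in ST. Its libraries varied several-fold within each group but did not overlap (log2 fold change 2.80 ± 0.47 (SE), edgeR adjusted p = 0.000248). ST hearts of 6 months had 399, 188 and 553 CPM of Nppb and 359, 34.4 and 556 CPM of Nppa, a range that holds the Nppa levels of 8 months.

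Rcan1, a feedback inhibitor of calcineurin that calcineurin signalling itself raises, had 142, 160 and 167 CPM in WT and 431, 411 and 486 CPM in ST of 8 months. Its log2 fold change was 1.51 ± 0.080 (SE; edgeR adjusted p = 1.32e-09), and ST of 6 months had 888 to 972 CPM, above every library of 8 months. Ankrd1, a stretch-responsive protein of the sarcomere, had 2670, 2570 and 2710 CPM in WT against 5000, 4570 and 5280 CPM in ST, a log2 fold change of 0.91 ± 0.060 (SE; edgeR adjusted p = 1.21e-08). The 3 ST libraries all lay well above the WT range. Acta1, the skeletal actin that the fetal heart uses, had 160 to 202 CPM in WT and 345 to 536 CPM in ST (log2 fold change 1.22). The corresponding range in ST of 6 months was 343 to 560 CPM. Cilp, a matrix protein of activated fibroblasts, was low in both groups and higher in ST, with 5.45 to 7.62 against 1.5 to 2.67 CPM.

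Myosin genes differed from each other in how near WT they lay. Myh7, the slow and fetal heavy chain, had 2690, 2530 and 2450 CPM in WT and 4400, 4240 and 4680 CPM in ST of 8 months (log2 fold change 0.81 ± 0.057 (SE), edgeR adjusted p = 2.85e-08). It remained apart from WT, although ST hearts of 6 months had far more, 11500 to 17000 CPM. Myh6, the fast heavy chain of the adult rodent ventricle, was called lower yet lay inside the band: 52000, 53100 and 56400 CPM in WT and 46200, 48400 and 46300 CPM in ST, a log2 fold change of -0.18 (95% interval -0.27 to -0.10). Myl2, the ventricular regulatory light chain, had 6680 to 7320 CPM in WT and 10700 to 11200 CPM in ST of 8 months, whereas ST of 6 months had 7130 to 7680 CPM. This was the only one of these 3 myosin genes whose levels in ST of 6 months overlapped those of WT. Among 32 sarcomere genes 14 were higher (43.8%, against 17.8% of all genes), 7 lower (21.9%, against 16.1%) and 21 near the WT level (65.6%, against 55%). The median log2 fold change was 0.10. The giant spring protein Ttn (-0.14, edgeR adjusted p = 0.0534) was near. Leaving out WT replicate 1 or 3 brought Ttn past the threshold, at -0.12 and -0.18.

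Lrrc10 and Xirp1 were near the WT level at 8 months, while their ST libraries of 6 months lay outside the WT range. Lrrc10, a heart-specific protein of the Z-disc region, had 474, 522 and 568 CPM in WT, 461, 482 and 504 CPM in ST of 8 months, and 88.9, 83.8 and 88.3 CPM in ST of 6 months. The ST libraries of 8 months overlapped those of WT. The log2 fold change was -0.10 (95% interval -0.25 to 0.053; edgeR adjusted p = 0.316), and Lrrc10 passed the test, at -0.17, when WT replicate 1 was left out. Xirp1, an actin-binding protein of the intercalated disc, had 245 to 253 CPM in WT, 192 to 224 CPM in ST of 8 months and 970 to 1170 CPM in ST of 6 months. It was called lower at 8 months (-0.27, edgeR adjusted p = 0.00663) within the band. Fhl1, a stretch-linked LIM protein, was also near WT, at 403 to 469 against 477 to 509 CPM, with 738 to 956 CPM in ST of 6 months.

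Irx3 and Irx5, transcription factors that pattern the ventricle wall, were among the 12 largest falls taken from genes without overlap, at low levels. Irx3 had 5.32, 14.8 and 14 CPM in WT and 0.423, 1.13 and 1.27 CPM in ST of 8 months. All 3 ST libraries were below the lowest WT library, which was replicate 1 (log2 fold change -3.53 ± 0.46 (SE), edgeR adjusted p = 2.49e-05). Irx5 had 2.32, 4.38 and 6.14 CPM in WT and 1.06, 0.564 and 0 CPM in ST. Its log2 fold change was -3.0 ± 0.56 (SE; edgeR adjusted p = 0.000671). ST of 6 months had 2.16 to 8.63 CPM of Irx3 and 0.154 to 4.05 CPM of Irx5, overlapping WT in both cases. The related Irx4 was lower by less (-0.75). Of 11 ventricular genes 5 were higher (45.5%, against 17.8% of all genes) and 5 lower (45.5%, against 16.1%). Of 11 genes that define heart muscle 6 were called higher (54.5%, against 17.8%) and 4 lower (36.4%, against 16.1%). Within 1.5-fold of WT were 10 of these 11 (90.9%, against 55%). Among the 10 were Tnnt2, whose promoter drives the transgene (0.46, called higher), Actc1 (0.35, called higher) and the transcription factor Tbx5 (-0.28, called lower). Tbx5 was not called without ST replicate 2 (edgeR adjusted p = 0.0618), nor by DESeq2 (adjusted p = 0.0699).

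**Figure D2:**
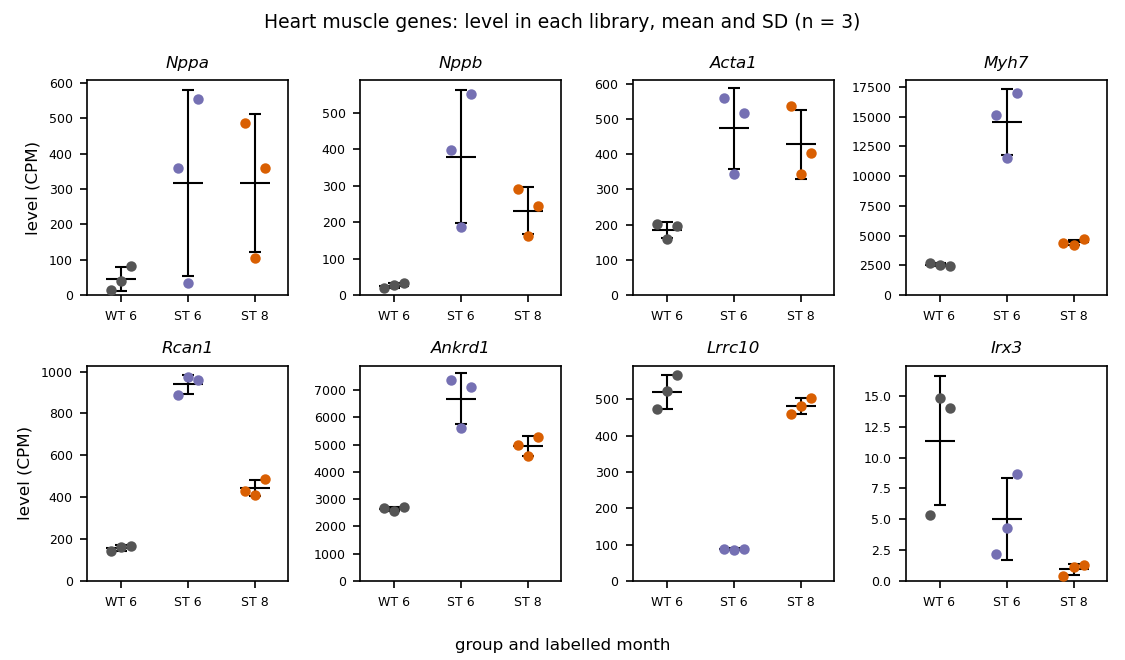
Level in CPM of 8 heart muscle genes in each library of WT 6 months, ST 6 months and ST 8 months; points are libraries and bars the mean and SD (n = 3). Nppb, Rcan1 and Ankrd1 of ST 8 months lie above every WT library, Lrrc10 overlaps WT, and Irx3 lies below every WT library.

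Immediate early genes, which switch on within minutes of a stimulus without new protein synthesis, were split between both outcomes. Of 35 listed 28 were tested, with a median log2 fold change of 0.16. Of the 28 tested, 12 were higher (42.9%, against 17.8% of all genes), 6 lower (21.4%, against 16.1%) and 10 near the WT level (35.7%, against 55%). The zinc finger factor Egr1 had 6.14, 7.08 and 8.41 CPM in WT and 28.3, 31.0 and 38.3 CPM in ST of 8 months (log2 fold change 2.19 ± 0.15 (SE), edgeR adjusted p = 1.86e-08). The orphan nuclear receptor Nr4a1 had 8.33, 6.18 and 7.74 CPM in WT and 31.3, 28.4 and 29.4 CPM in ST (2.01 ± 0.13 (SE), edgeR adjusted p = 9.3e-09). Its relative Nr4a3 had 3.28, 4.12 and 3.47 against 15.4, 12.6 and 12 CPM (1.88 ± 0.19 (SE), edgeR adjusted p = 1.22e-06). In all 3 genes the ST libraries of 8 months lay above WT, and those of 6 months lay higher again, at 166 to 210 CPM for Egr1, 185 to 222 for Nr4a1 and 193 to 262 for Nr4a3.

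The AP-1 gene Fos did not share that position. It had 1.77, 1.16 and 1.20 CPM in WT, 1.48, 0.752 and 1.27 CPM in ST of 8 months and 57.7 to 64.2 CPM in ST of 6 months. Its levels of 8 months overlapped WT, and it fell under the filter on low counts, so it has no test. Jun (-0.02), its partner in AP-1, and Mafk (0.18, edgeR adjusted p = 0.0848) were tested and near WT. Btg2, an antiproliferative early gene, was near as well as called higher (0.30; adjusted p = 0.0606 in a fit over 9 libraries). The 6 lower genes were Ier3 (-1.32), Dusp5, Dusp1, Klf2, Zfp36 and Junb, of which Dusp1 and Dusp5 remove phosphate from MAP kinases and Zfp36 speeds the decay of cytokine mRNAs. That count was 3 without ST replicate 1 and 3 without ST replicate 3. Ccn1, a matrix protein that YAP and stretch are known to raise, had 18.8 to 19.8 CPM in WT and 31.5 to 47.4 CPM in ST (log2 fold change 1.06), and 108 to 150 CPM in ST of 6 months.

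Most heat shock genes lay within 1.5-fold of WT, yet higher calls were more frequent among them than over all genes. Of 30 tested 21 (70%) were near the WT level, against 55% of all genes. Higher were 14 (46.7%, against 17.8%), and 1 (3.33%, against 16.1%) was lower (2 without WT replicate 2). The median log2 fold change was 0.19. Without ST replicate 3, 9 were higher. Hspa1a, the stress-inducible HSP70, had 16, 19.1 and 21.7 CPM in WT, 20.5, 15.8 and 23.0 CPM in ST of 8 months and 135 to 172 CPM in ST of 6 months. The groups overlapped, and the log2 fold change was 0.07 (95% interval -0.25 to 0.39; edgeR adjusted p = 0.733). The constitutive chaperones Hspa8 (0.18) and Hsp90ab1 (-0.08) were near too. Hspa8 passed the test, but not with scaling by totals alone (adjusted p = 0.0838), nor without WT replicate 2 (adjusted p = 0.0638) or ST replicate 3 (adjusted p = 0.0628).

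Other chaperones were called higher, with intervals not wholly inside the band. Asked for a change beyond 1.5-fold, 1 heat shock gene passed as higher. The intervals of Hsp90aa1 (0.559 to 0.82) and Hspb6 (0.495 to 0.842) crossed the edge of the band. The inducible HSP90 gene Hsp90aa1 had 313, 287 and 278 CPM in WT and 467, 448 and 489 CPM in ST (log2 fold change 0.69 ± 0.066 (SE), edgeR adjusted p = 8.87e-07). The mitochondrial co-chaperonin Hspe1 had 95.7, 118 and 123 CPM in WT and 192, 191 and 205 CPM in ST (0.81 ± 0.086 (SE), edgeR adjusted p = 2.7e-06). For Hspe1 the levels of 8 months were above those of ST of 6 months, 167 to 177 CPM, while for Hsp90aa1 they were below them, 792 to 890 CPM. The small heat shock protein Hspb6 had 996 to 1290 CPM in WT and 1580 to 1890 CPM in ST.

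Promoters of these genes were searched for the heat shock element, because members with and without it can be set beside their levels. The 250 bases before the annotated start were read from RefSeq (rat assembly GRCr8) for the 24 of 30 heat shock genes with 1 start listed. The element, written as the blocks GAA, TTC and GAA with 2 free bases between neighbours and searched on both strands with overlapping matches counted, occurred in 0.663% of 33469 rat promoters of that length. They occurred in 3 of 11 higher genes, which were Hspa8, Hspd1 and Hspe1, and in 1 of 12 that were near and not called, Hsph1. Hspd1 and Hspe1 are divergent neighbours whose windows overlap and share these letters. The windows of Hspe1 (GRCr8 chr9:64084077-64084326, plus strand) and Hsph1 (GRCr8 chr12:10427118-10427367, plus strand) are shown as 1 higher and 1 near gene. Capitals mark matches to the motifs searched, which in Hsph1 include CACGTG besides the heat shock element.
Hspe1: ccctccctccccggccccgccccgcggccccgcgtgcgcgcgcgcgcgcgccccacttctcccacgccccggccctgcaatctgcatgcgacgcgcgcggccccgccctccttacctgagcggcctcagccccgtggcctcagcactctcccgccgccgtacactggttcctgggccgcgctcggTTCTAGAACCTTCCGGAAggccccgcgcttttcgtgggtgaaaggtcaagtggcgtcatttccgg
Hsph1: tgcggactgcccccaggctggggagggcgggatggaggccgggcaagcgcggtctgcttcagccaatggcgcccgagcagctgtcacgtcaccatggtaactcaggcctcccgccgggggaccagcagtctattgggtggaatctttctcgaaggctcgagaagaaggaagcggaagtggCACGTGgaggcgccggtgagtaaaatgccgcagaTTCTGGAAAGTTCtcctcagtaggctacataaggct
Hsph1 had a log2 fold change of -0.04 (near WT, edgeR adjusted p = 0.751), so a match was present in a gene near WT as well as in higher ones.

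Clock genes stood further from WT than most lists. The core clock is a daily loop in which BMAL1 and CLOCK switch on Per, Cry and Nr1d genes at E-box sites, and the products switch their activators off again. The labels give no hour of collection. Of 20 clock genes tested 13 were lower (65%, against 16.1% of all genes) and 4 higher (20%, against 17.8%), with a median log2 fold change of -0.60. Near the WT level were 3 (15%, against 55%), 2 of them without a call. A further 1 was neither called nor near. The summed level of the list was 1710 to 1770 CPM in WT, 963 to 979 CPM in ST of 8 months and 1160 to 1210 CPM in ST of 6 months.

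The output factor Dbp had 211, 213 and 221 CPM in WT and 66.2, 71.4 and 63.2 CPM in ST of 8 months (log2 fold change -1.67 ± 0.071 (SE), edgeR adjusted p = 8.09e-11). All ST libraries were below every WT library, and ST of 6 months lay lower again, at 26.5 to 28.7 CPM. The repressor Bhlhe41 had 71.4, 73.2 and 60.4 CPM in WT and 22.2, 21.6 and 20.1 CPM in ST (-1.67 ± 0.10 (SE), edgeR adjusted p = 5.53e-09). Per3, a period gene, had 121, 121 and 113 CPM in WT and 51.2, 49.6 and 50.6 CPM in ST of 8 months, with 42.9 to 51.5 CPM in ST of 6 months. Ciart, a repressor of BMAL1 and CLOCK, had 27.7, 28.2 and 25.1 CPM in WT against 4.44, 2.07 and 4.90 CPM in ST (-2.81 ± 0.19 (SE), edgeR adjusted p = 1.33e-08). Dbp, Bhlhe41, Per3 and Ciart were all lower in 3 of 3 ST libraries. Of all genes tested 46.8% had their groups fully apart, in either direction. Per1 was lower by less (-0.56), with 77.7 to 86.5 against 117 to 127 CPM, and ST of 6 months had 116 to 121 CPM.

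The activators lay on the other side. Bmal1 had 2.05, 3.35 and 3.34 CPM in WT and 15.9, 18.4 and 17.4 CPM in ST of 8 months, a log2 fold change of 2.57 ± 0.19 (SE; edgeR adjusted p = 3.76e-08). ST of 6 months had 6.76 to 7.86 CPM, between both. Npas2, which can take the place of Clock, and Clock itself (0.45) were also higher. The 3 genes near WT were Cry2, which was called lower (-0.40), Cry1 (-0.04) and Rora (-0.27).

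The E-box letters CACGTG occurred within 250 bases before the start in 4 of 11 lower clock genes with 1 start listed in RefSeq, namely Ciart, Bhlhe41, Bhlhe40 and Tef, and in 0 of 2 higher genes. Of all 33469 rat promoters 5.59% held them. The D-box letters TTATGTAA, in 0.828% of all promoters, occurred in 1 lower gene, Per2. The windows of Ciart (GRCr8 chr2:186112247-186112496, minus strand) and Bhlhe41 (GRCr8 chr4:180569356-180569605, minus strand) are shown because these genes are among the furthest below WT. Capitals mark CACGTG, which occurs 3 times in Ciart and once in Bhlhe41.
Ciart: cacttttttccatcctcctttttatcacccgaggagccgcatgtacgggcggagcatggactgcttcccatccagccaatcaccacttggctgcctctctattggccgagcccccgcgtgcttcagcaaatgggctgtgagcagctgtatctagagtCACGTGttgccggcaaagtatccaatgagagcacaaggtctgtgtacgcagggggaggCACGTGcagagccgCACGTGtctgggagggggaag
Bhlhe41: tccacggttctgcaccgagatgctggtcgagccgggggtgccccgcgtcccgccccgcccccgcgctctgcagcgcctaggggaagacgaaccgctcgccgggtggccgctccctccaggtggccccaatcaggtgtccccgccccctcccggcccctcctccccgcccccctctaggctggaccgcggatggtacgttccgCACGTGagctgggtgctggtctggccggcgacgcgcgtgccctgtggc
A match in letters does not show that a factor binds there.

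**Figure D3:**
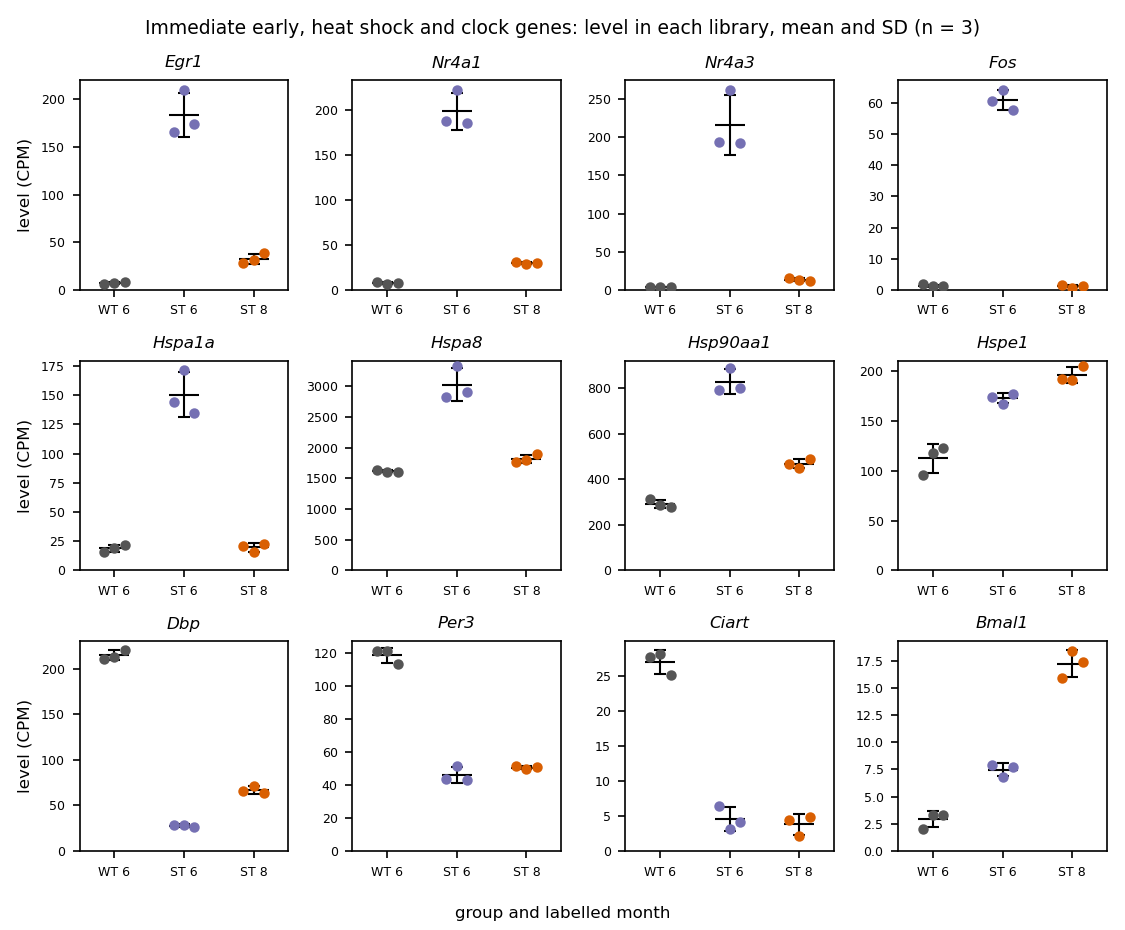
Level in CPM of 12 immediate early, heat shock and clock genes in each library of WT 6 months, ST 6 months and ST 8 months; points are libraries and bars the mean and SD (n = 3). Fos and Hspa1a of ST 8 months overlap WT, Egr1, Nr4a1 and Nr4a3 lie between WT and ST 6 months, and Bmal1 of ST 8 months lies above both other groups.

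Genes that glucocorticoid hormones are known to raise stood apart from WT, but in both directions. Of 19 tested 9 were higher (47.4%, against 17.8% of all genes) and 8 lower (42.1%, against 16.1%). Only 1 (5.26%, against 55%) was near WT, and the median log2 fold change was 0.43. Zbtb16, a zinc finger gene that responds strongly to glucocorticoids, had 265, 282 and 270 CPM in WT and 73.8, 68.0 and 67.1 CPM in ST of 8 months (-1.96 ± 0.070 (SE), edgeR adjusted p = 1.13e-11). Fkbp5, a co-chaperone of the glucocorticoid receptor, had 84.5, 82.8 and 86.1 against 30.4, 29.9 and 30.9 CPM (-1.46 ± 0.079 (SE), edgeR adjusted p = 1.55e-09). Both genes were below WT in 3 of 3 libraries (46.8% of all genes tested had their groups fully apart, in either direction). In ST of 6 months, Zbtb16 (279 to 360 CPM) and Fkbp5 (118 to 124 CPM) were not below WT. On the higher side, Angptl4, a secreted inhibitor of lipoprotein lipase, had 4.78, 5.80 and 4.80 CPM in WT and 27.7, 24.2 and 27.6 CPM in ST (2.37 ± 0.14 (SE), edgeR adjusted p = 3.53e-09). Pdk4, a kinase that shuts the entry of pyruvate into the TCA cycle, had 132, 110 and 97.1 CPM in WT and 319, 284 and 306 CPM in ST (1.44 ± 0.090 (SE), edgeR adjusted p = 7.45e-09). ST of 6 months had 767 to 1030 CPM of Pdk4.

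Respiratory chain genes lay mostly above WT by small amounts. Of 76 nuclear genes for subunits of the chain and ATP synthase (OXPHOS) 69 were higher (17.8% of all genes were) and 0 lower, and 26 were near the WT level. The median log2 fold change was 0.49. Without WT replicate 1 the median was 0.38, with 69 higher and 1 lower. Asked for a change beyond 1.5-fold, 3 passed. The complex I subunit gene Ndufc1 had 137, 156 and 173 CPM in WT and 289, 278 and 308 CPM in ST of 8 months (0.92 ± 0.082 (SE), edgeR adjusted p = 3.9e-07). Uqcrb of complex III had 396 to 465 CPM in WT and 706 to 749 CPM in ST. Atp5f1a, the alpha subunit of ATP synthase, was near WT with 4800, 4900 and 4940 against 4810, 5020 and 5000 CPM (0.03, 95% interval -0.06 to 0.12). The list of mitochondrial ribosome proteins moved alike, with 39 of 47 higher (83%, against 17.8%), 0 lower and a median of 0.43. The cytosolic ribosomal protein genes, given above, rose in the same libraries, and the long mRNAs fell. All of these lists were measured in the same libraries, and how far library make-up enters the mitochondrial values was not tested.

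Fuel use genes were closer to WT. Of 21 TCA cycle genes 20 were near the WT level (95.2%, against 55% of all genes), with a median log2 fold change of 0.17. Called higher were 11 of the 21 (52.4%, against 17.8%) and lower 2 (9.52%, against 16.1%). The lower count was 0 without ST replicate 2, and 1 without WT replicate 2, WT replicate 3 or ST replicate 1. Of 33 genes of fatty acid oxidation 25 were near (75.8%, against 55% of all genes), with 9 called higher (27.3%, against 17.8%) and 12 lower (36.4%, against 16.1%). The fatty acid transporter Cd36 had 403, 424 and 432 CPM in WT and 281, 243 and 269 CPM in ST (-0.65 ± 0.069 (SE), edgeR adjusted p = 2.59e-06), whereas ST of 6 months had 396 to 431 CPM, across the WT range. Ucp3, an uncoupling protein of the inner membrane, had 10.4 to 13.9 CPM in WT and 34.6 to 39.7 CPM in ST (1.53). Acsl1, which activates fatty acids, was near WT (0.07). Of 32 glycolysis and glucose genes 21 were near (65.6%, against 55%), Gapdh and Pygm among them. Higher were 9 (28.1%, against 17.8%) and lower 8 (25%, against 16.1%). The muscle isozyme Pgam2 had 310 to 354 CPM in WT and 509 to 581 CPM in ST (0.76).

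**Figure D4:**
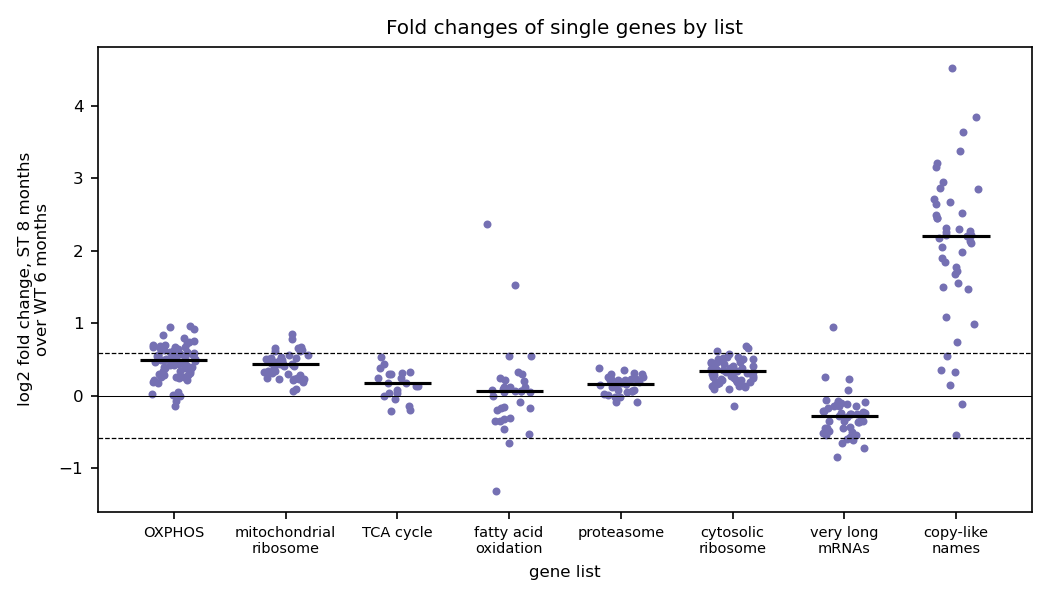
Log2 fold change of ST 8 months over WT 6 months (y axis) for each tested gene (point) of 7 gene lists and of the names that look like copies; bars are medians and dashed lines 1.5-fold. The medians of the OXPHOS (0.49), mitochondrial ribosome (0.43) and cytosolic ribosome (0.34) lists lie above 0, that of the very long mRNAs (-0.28) below, and that of the copy-like names at 2.21.

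Genes that set the electrical activity of heart muscle were more often lower than higher: 15 of 28 ion channel and pump genes fell (53.6%, against 16.1% of all genes). The 4 that rose (14.3%, against 17.8%) and the 15 near WT (53.6%, against 55%) were close to the shares of all genes. The median was -0.31. Kcnj2, the channel of the inward rectifier current that holds the resting potential, had 89.0, 109 and 99.5 CPM in WT and 41.9, 43.4 and 45.2 CPM in ST of 8 months (-1.18 ± 0.089 (SE), edgeR adjusted p = 6.18e-08). Kcnj5, a subunit of the acetylcholine-gated current, had 81.8, 98.5 and 107 against 35.1, 34.6 and 35.8 CPM (-1.43 ± 0.10 (SE), edgeR adjusted p = 2.85e-08). Kcnh2, the channel of the rapid delayed rectifier, had 91.8 to 104 CPM in WT, 47.4 to 51.2 CPM in ST of 8 months and 27.9 to 31.4 CPM in ST of 6 months. For each of these 3 genes the ST libraries of 8 months lay below all WT libraries (46.8% of all genes tested were fully apart, in either direction). Hcn4, the pacemaker channel, was low in this tissue, with 2.87 to 9.14 CPM in WT and 0.211 to 1.27 CPM in ST. Kcnip2, which assists the transient outward current, was higher (0.50).

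Calcium handling genes were mostly within 1.5-fold of WT, 19 of 25 (76%, against 55% of all genes). Lower calls were still more frequent than over all genes, 9 (36%, against 16.1%), and 5 (20%, against 17.8%) were called higher. Atp2a2, the pump that returns calcium to the sarcoplasmic reticulum, had 14700, 15700 and 15700 CPM in WT and 11500, 12300 and 11900 CPM in ST of 8 months (-0.36 ± 0.050 (SE), edgeR adjusted p = 4.63e-05), inside the band. ST of 6 months had 14000 to 15700 CPM. Sln, an inhibitor of that pump found mainly in atria, had 1.5, 2.19 and 3.74 CPM in WT and 12.3, 23.7 and 26.0 CPM in ST (3.08 ± 0.29 (SE), edgeR adjusted p = 8.73e-07). Of the 10 atrial genes tested 2 were higher (20%, against 17.8% of all genes), which were Nppa and Sln. Lower were 2 (20%, against 16.1%), or 1 without ST replicate 2. Both shares were close to those of all genes.

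Of 24 genes of adrenergic and cAMP signalling 12 were lower (50%, against 16.1% of all genes) and 15 near WT (62.5%, against 55%). Higher was 1 (4.17%, against 17.8%; 2 without WT replicate 1), and the median was -0.23. Without ST replicate 1 the lower count was 7. Adrb1, the main beta receptor of heart muscle, had 36.9, 38.0 and 37.9 CPM in WT and 20.5, 21.4 and 21.6 CPM in ST (-0.81 ± 0.095 (SE), edgeR adjusted p = 7.67e-06). Adcy6, the adenylyl cyclase it acts on, had 271 to 297 CPM in WT and 170 to 185 CPM in ST. ST of 6 months had 244 to 314 CPM of Adcy6, overlapping WT, and 24.2 to 26.9 CPM of Adrb1, below it. The G protein subunit gene Gnas was near WT (0.16, edgeR adjusted p = 0.066), and passed the test, at 0.21, when WT replicate 1 was left out.

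Of 29 genes of mechanical sensing 10 were higher (34.5%, against 17.8% of all genes), 7 lower (24.1%, against 16.1%) and 14 near WT (48.3%, against 55%). The higher count was 6 without ST replicate 1 or with scaling by totals alone. The median was 0.16. Pkd1, a large membrane protein linked to the sensing of flow, had 103, 95.9 and 99.3 CPM in WT and 63.8, 63.7 and 61.5 CPM in ST of 8 months (-0.64, edgeR adjusted p = 3.43e-06). Piezo1, a stretch-gated channel, had 24.6, 17.1 and 23.8 CPM in WT and 23.5, 24.6 and 22.9 CPM in ST of 8 months (0.13, 95% interval -0.13 to 0.43; edgeR adjusted p = 0.47). Trpv4 had 3.41, 1.93 and 2.67 against 2.96, 1.69 and 4.17 CPM. Its interval, from -0.60 to 0.84, is too wide to place it, and ST of 6 months had 13.3 to 19.4 CPM. Tead1, the partner of YAP on DNA, was near (-0.02). Thbs1, a matrix protein that load is known to raise, had 12.6, 13.1 and 11.2 CPM in WT and 30.0, 19.2 and 26.0 CPM in ST of 8 months (1.03 ± 0.15 (SE), edgeR adjusted p = 6.31e-05), above WT but far from the 382 to 547 CPM of ST of 6 months.

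Interferon-stimulated genes, which block virus replication, formed one of the lists with the most increases: 20 of 37 tested were higher (54.1%, against 17.8% of all genes). Lower were 3 (8.11%, against 16.1%; 1 without ST replicate 1), and 8 (21.6%, against 55%) were near WT. The median log2 fold change was 0.49. Ifit1, which binds viral RNA, had 1 count over the 3 WT libraries and 171 over the ST libraries. The ratio of their rates was 239 (exact 95% interval 42.4 to 9510, counting error only). Ifit1 had 13.5, 9.02 and 10.7 CPM in ST of 8 months and 4.93 to 5.28 CPM in ST of 6 months. Mx2, a GTPase that blocks viruses, had 18.7, 14.6 and 16.9 CPM in WT and 56.4, 53.4 and 49.9 CPM in ST (1.68 ± 0.10 (SE), edgeR adjusted p = 6.77e-09). Ifi27, an interferon-stimulated gene, had 17.2, 21.4 and 20.8 against 45.0, 44.7 and 50.6 CPM (edgeR adjusted p = 2.1e-07). In ST of 6 months Mx2 had 25.7 to 27.6 CPM and Ifi27 22.6 to 26.9 CPM, nearer WT than the libraries of 8 months. The list's summed level was 647 to 661 CPM in WT, 653 to 701 in ST of 6 months and 845 to 886 in ST of 8 months. The lower genes included Igtp and Irf1.

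Antigen presentation genes had no such excess, with 4 of 29 higher (13.8%, against 17.8% of all genes) and 6 lower (20.7%, against 16.1%). Near WT were 15 (51.7%, against 55%), and the median was 0.02 (-0.04 with scaling by totals alone). B2m, the invariant chain of class I molecules, was near (0.11), as was Cd74, the invariant chain of class II (0.03). The class I gene RT1-CE16 had 24.4, 22.3 and 22.3 CPM in WT, 97.5, 91.9 and 94.2 CPM in ST of 8 months and 3.08 to 4.91 CPM in ST of 6 months. It was above WT at 8 months (2.05) and below it at 6 months. Class I genes of the rat are near-identical copies that differ between haplotypes, and reads can be split among them, so this value is uncertain. The class II gene RT1-Da had 26.3 to 32.3 CPM in WT and 9.94 to 14.2 CPM in ST (-1.20), and RT1-Ba was lower as well (-1.05).

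Among 22 inflammation genes tested 10 were higher (45.5%, against 17.8% of all genes), 5 lower (22.7%, against 16.1%) and 6 near WT (27.3%, against 55%). The endothelial adhesion molecule Sele had 2.18, 1.80 and 1.87 CPM in WT and 12.1, 9.96 and 7.62 CPM in ST (2.33 ± 0.24 (SE), edgeR adjusted p = 2.13e-06). Cxcl12, a chemokine of stromal and vessel cells, had 277, 240 and 248 CPM in WT and 573, 494 and 492 CPM in ST of 8 months (1.04 ± 0.075 (SE), edgeR adjusted p = 3.54e-08), but 183 to 216 CPM in ST of 6 months. Nfkbia, the inhibitor that NF-kappaB induces against itself, was higher (1.01). On the IL-6 side Stat3 was lower (-0.29), inside the band, whereas ST of 6 months had 375 to 398 CPM against 189 to 197 in WT.

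In bulk tissue, fewer cells of a type and less RNA per cell cannot be told apart, which bears on all marker lists that follow. Of 24 endothelial markers 15 were higher (62.5%, against 17.8% of all genes) and 2 lower (8.33%, against 16.1%). Without WT replicate 2 or ST replicate 3 the lower count was 1. Near WT were 11 (45.8%, against 55%), and the median log2 fold change was 0.39. The list's summed level was 3060 to 3410 CPM in WT and 3570 to 3890 CPM in ST of 8 months. Kdr, the main VEGF receptor, had 159, 139 and 147 CPM in WT and 297, 272 and 256 CPM in ST (0.90 ± 0.073 (SE), edgeR adjusted p = 1.34e-07). Nrp2, a co-receptor for VEGF and semaphorins, had 31.3, 27.2 and 31.6 CPM in WT, 82.9, 84.2 and 93.1 CPM in ST of 8 months and 28.9 to 32.6 CPM in ST of 6 months. Its log2 fold change was 1.54 ± 0.087 (SE; edgeR adjusted p = 2.38e-09), and the levels of 6 months were within those of WT or close to them. Angpt1, which steadies vessels through the receptor TIE2, lay the other way, with 78.8, 112 and 87.0 CPM in WT and 28.3, 28.9 and 20.1 CPM in ST (-1.84 ± 0.14 (SE), edgeR adjusted p = 7.74e-08). Tie1 (0.16) was near WT, and passed the test, at 0.22, without WT replicate 1. The water channel Aqp1 (-0.04) was near too.

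Scar tissue genes were placed much as all genes were. Of 44 collagen and matrix genes 27 (61.4%) were near, 8 were higher (18.2%) and 11 lower (25%; 17 lower with scaling by totals alone), with a median of -0.03, against 55% near, 17.8% higher and 16.1% lower of all genes. Col1a1, the main fibrillar collagen, had 110, 121 and 129 CPM in WT and 94.1, 117 and 98.7 CPM in ST (-0.21, edgeR adjusted p = 0.0793), overlapping. It was called lower without WT replicate 1 (-0.27) and without ST replicate 2 (-0.30). The collagen-binding proteins Dcn (0.06) and Sparc (0.07) were near WT. Of 20 fibroblast markers 13 were near (65%, against 55%) and 2 higher (10%, against 17.8%), or 1 without ST replicate 3. Lower were 5 (25%, against 16.1%), including Pdgfra (-0.55) and Scara5 (-1.02). The lower count was 8 without WT replicate 1 and 3 without ST replicate 3.

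Of 23 macrophage and monocyte markers 8 were lower (34.8%, against 16.1% of all genes), 1 higher (4.35%, against 17.8%) and 5 near WT (21.7%, against 55%). A further 10 were unresolved, and the median was -0.36. The mannose receptor Mrc1 of resident macrophages had 20.2, 24.6 and 30.6 CPM in WT, 12.7, 10.7 and 13.4 CPM in ST of 8 months and 29.6 to 38.0 CPM in ST of 6 months (8 months against WT: -1.02 ± 0.16 (SE), edgeR adjusted p = 0.000125). Cd163, a haemoglobin scavenger receptor, had 22.5 to 26.1 against 12.8 to 16.9 CPM. Both were below WT in 3 of 3 libraries (46.8% of all genes tested had their groups fully apart, in either direction). Of 21 lymphocyte markers listed only 5 passed the filter, and 0 of the 5 were called (1 lower without WT replicate 1).

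The outer lining of the heart gave the largest fall among markers. Msln had 3.00, 5.41 and 9.07 CPM in WT and 0.423, 0.376 and 0.363 CPM in ST of 8 months (-3.84 ± 0.55 (SE), edgeR adjusted p = 5.81e-05). Upk3b had 1.77 to 4.80 CPM in WT and 0, 0 and 0.726 CPM in ST (-3.66; -7.52 without ST replicate 3, the only one with counts). Wt1, which epicardial and vessel cells also express, was higher instead (0.70). Of 9 mesothelial and epicardial genes tested 5 were lower (55.6%, against 16.1% of all genes) and 1 higher (11.1%, against 17.8%). The lower count was 8 without WT replicate 1 or ST replicate 3, and the higher count 2 without ST replicate 1. The Schwann cell gene Cdh19 was lower as well, with 1.45 to 4.23 against 9.53 to 11.6 CPM. How much lining tissue or nerve each piece of heart held is not given in the labels, and its part was not tested.

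Among muscle and blood genes outside these groups, Chrna1, the acetylcholine receptor subunit that denervated muscle raises, had 0.546, 0.386 and 0.400 CPM in WT and 9.73, 6.02 and 9.98 CPM in ST of 8 months (4.22 ± 0.35 (SE), edgeR adjusted p = 1.51e-07). ST of 6 months had 9.09 to 23.1 CPM. Chrnd, another subunit of that receptor, lay the other way, with 1.77, 2.70 and 1.73 CPM in WT and 0.211, 0.752 and 0.544 CPM in ST (-1.97, edgeR adjusted p = 0.00447). Of 22 skeletal muscle genes listed only 7 were tested. Chrna1 was the only higher one (14.3%, against 17.8% of all genes) and Chrnd the only lower one (14.3%, against 16.1%). Chrna1 had 10 counts over the WT libraries and Chrnd 8 over the ST libraries. Each therefore passed the filter on low counts only through the group where it was higher. Without WT replicate 1 or 2 Chrnd did not pass that filter, leaving 0 lower genes. Slc4a1, the anion exchanger of red cells, had 7.64, 6.70 and 5.34 CPM in WT and 52.6, 42.5 and 48.6 CPM in ST (2.88 ± 0.13 (SE), edgeR adjusted p = 2.64e-10), while the summed erythroid list overlapped between groups, at 1140 to 1300 CPM in WT and 1140 to 1590 CPM in ST. Fbxo32, a ubiquitin ligase of muscle wasting, had 36.4, 53.3 and 41.5 CPM in WT and 12.1, 15.4 and 15.4 CPM in ST (-1.60). Asb2, a ubiquitin ligase subunit of muscle, had 350 to 444 CPM in WT and 696 to 779 CPM in ST (0.94).

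Of 22 growth arrest genes 8 were higher (36.4%, against 17.8% of all genes) and 2 lower (9.09%, against 16.1%). The lower count was 1 without WT replicate 1 or ST replicate 1. Near WT were 8 (36.4%, against 55%). Cdkn1a, the p21 inhibitor of the cell cycle, had 21.0, 21.9 and 21.9 CPM in WT and 52.2, 49.6 and 48.8 CPM in ST (1.23 ± 0.089 (SE), edgeR adjusted p = 3.6e-08), with 119 to 141 CPM in ST of 6 months. Ccnd1, a cyclin that drives entry into the cell cycle, had 42.9 to 50.8 CPM in WT and 97.4 to 119 CPM in ST (1.24). Ccng1, a p53 target, was near WT (0.02). The median of 20 cell cycle genes tested was 0.01 (-0.051 and 4 lower with scaling by totals alone). Lower was 1 (5%, against 16.1% of all genes), and 4 were higher (20%, against 17.8%). The 4 were Ccnd1, Top2a (0.137 to 1.07 CPM in WT and 1.81 to 2.33 in ST; not called without WT replicate 1 or ST replicate 1), Mki67 and Mcm5. Without ST replicate 1 the higher count was 1, without WT replicate 1 or 3 it was 2, and without WT replicate 3 the lower count was 2.

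Hmox1, the haem oxygenase that oxidative stress induces, had 15, 19.6 and 15.6 CPM in WT, 7.61, 7.90 and 6.90 CPM in ST of 8 months and 35.1 to 54.0 CPM in ST of 6 months (8 months against WT: -1.16 ± 0.16 (SE), edgeR adjusted p = 3.68e-05). It lay above WT at 6 months and below it at 8 months. Among 30 genes of the oxidative stress list 10 were higher (33.3%, against 17.8% of all genes). That count was 6 without WT replicate 2 or 3, and 5 with scaling by totals alone. Lower were 5 (16.7%, against 16.1%) and near 19 (63.3%, against 55%). Of 27 genes of endoplasmic reticulum stress 21 were near (77.8%, against 55%), among them the folding genes Calr (-0.03) and Canx (0.07). Higher were 2 (7.41%, against 17.8%) and lower 5 (18.5%, against 16.1%). All 31 proteasome genes tested were near WT. Of these 11 were called higher (35.5%, against 17.8%), 7 without ST replicate 2, 5 without ST replicate 3 and 6 with scaling by totals alone.

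**Figure D5:**
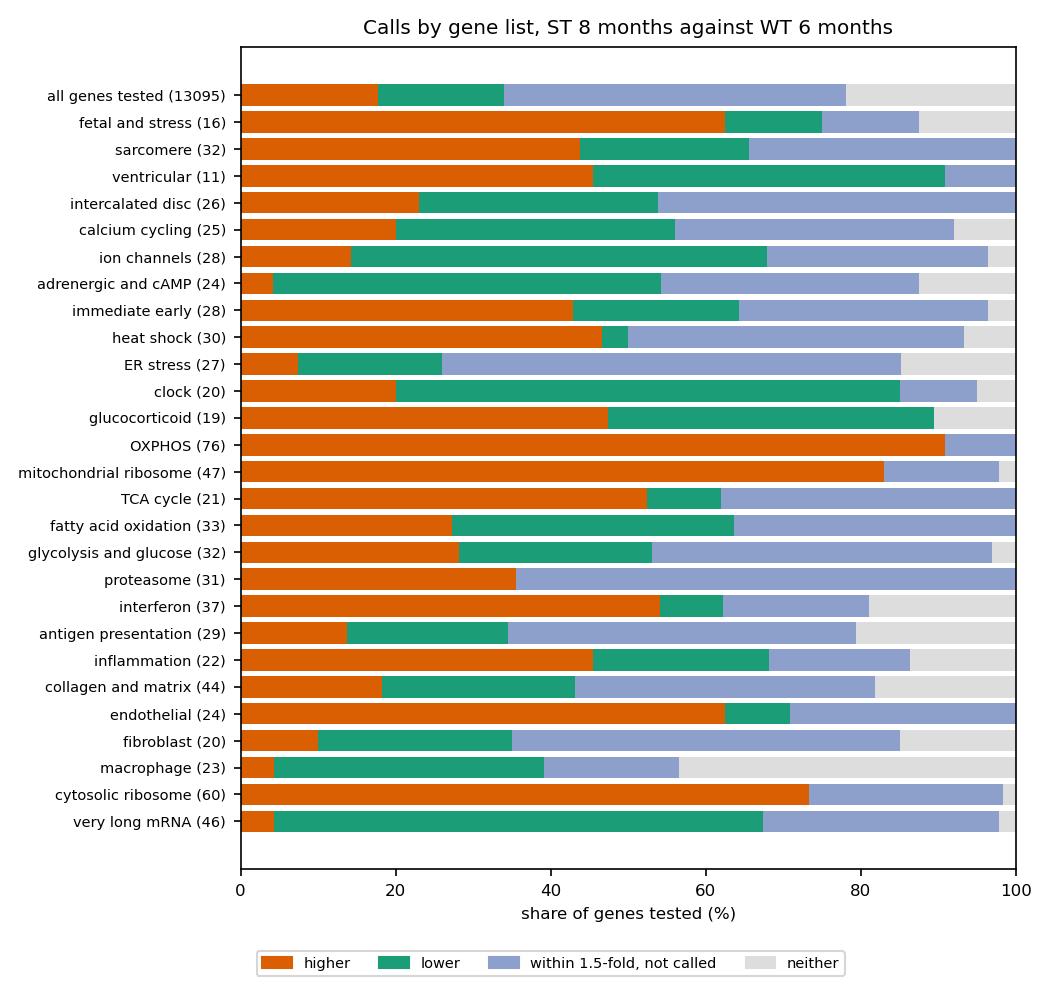
Share of tested genes (x axis, percent) called higher, called lower, within 1.5-fold of WT without a call, or neither, for all genes and for 27 gene lists; the number tested is in brackets. The clock list has the largest share of lower calls shown (13 of 20), just above that of the very long mRNAs, and the OXPHOS list the largest share of higher calls (69 of 76).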

How the data were processed

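Values are expected counts deposited by the authors, 1 table per labelled month, mostly whole and not scaled. The sources used here do not name the counting tool. The submitters' processing notes name the mouse builds GRCm38 and mm10, although 38599 of 38600 names match rat RefSeq symbols. Mitochondrially encoded genes were not analysed here, and the table of 2 months was not used.

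Counts were rounded, filtered with filterByExpr, scaled by TMM and tested with the two-sided quasi-likelihood test of edgeR 4.0.16 (R 4.3.3) on the 6 libraries, with Benjamini-Hochberg adjustment over all genes tested. Each SE was approximated from the fold change and its F statistic (log2 fold change over root F), which is poor near 0 counts. Intervals are 95% limma 3.58.1 voom intervals. Levels are CPM scaled by TMM over the 9 libraries of both tables. A floor of 3 counts in 1 library is 0.401 to 0.427 CPM in WT and 0.538 to 0.639 CPM in ST of 8 months, and covers counting error only. In counts simulated for this comparison (12910 genes), the test called 64.2% of genes changed 1.5-fold, 90.9% of those changed 2-fold and 100% of those changed 4-fold. Of 185 calls 9.19% were false, and 77.2% of unchanged genes were near the WT level. Only 200 genes were changed there, whereas 33.9% were called in the data. The called and false shares depend on how many genes change, so they do not carry over to these data.

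Members and 53 gene lists were chosen with earlier results of these data known. Named genes are the 12 largest and 12 smallest fold changes among called genes without overlap and a mean log2 CPM from 1 upward, passing over locus and clone identifiers. To these were added up to 3 called members of each list with the smallest p, up to 2 near members with the narrowest interval, a panel of 31 genes and the transgene. Jun, Ier3, Dusp1, Dusp5, Klf2, Zfp36, Junb, Npas2, Clock, Cry1, Igtp, Irf1, Irx4, Mki67 and Mcm5 were named after their values were seen. Alternatives were other scalings, filters and tests (DESeq2 1.42.0 among them), a fit over 9 libraries, thinned counts, a replicate block, other bands, and leaving out each library. Results of some genes are not reported here.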

Additional observations from a re-analysis of the deposited data

How the results depend on the processing

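Counts of called genes stayed within 1.5 times of 4441 under other scalings, filters, tests of no change, a fit over 9 libraries, thinned counts, leaving out haemoglobin genes, and adding copy-like names to their parent genes, an alternative chosen after seeing the data. DESeq2 called 3197 genes. The test against a change beyond 1.5-fold called 554 genes by its own construction, 330 higher and 224 lower. Scaling by library size alone moved the median of all genes from -0.008 to -0.072 and the share of higher calls from 52.4% to 39.7% (1880 higher and 2856 lower). Genes near the WT level numbered 2531 with the narrower band tried and 10891 with a band of 2-fold, as the band itself sets. Leaving out 1 library at a time gave 3521 to 4390 called genes, 1863 to 2282 higher, 1658 to 2108 lower, and 6378 to 7115 near. Of 183 named genes called, 162 kept their call in every alternative other than the test beyond 1.5-fold, 21 lost it in at least 1 (17 of them on leaving out 1 library), and 0 changed direction. Of 99 named genes near WT, 86 stayed near in every alternative with an interval. The fall of H19, an imprinted RNA, was -1.78, moved to -3.01 without ST replicate 2, and was not called by DESeq2. Few counts limit Irx5, Hcn4, Msln, Upk3b, Ifit1, Chrna1 and Chrnd, which passed the filter only through the group where they were higher.

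Same-numbered WT and ST libraries had deviations correlated at 0.0506, 0.0537 and 0.0202, so the numbers were not taken to pair the samples, although every sample correlated best with its own number. With the replicate number as a block, 4652 genes were called (2443 higher and 2209 lower) and 7356 were near.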
